A study of Mus musculus with 14 samples.

Results

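Apolipoproteins are the proteins that package fat and cholesterol into lipoprotein particles for transport in blood. The 9 described here, Apoa1, Apoa2, Apoa4, Apoa5, Apob, Apoc1, Apoc3, Apoe and Apom, were followed in the liver of mice through partial hepatectomy (PHx), an operation that removes part of the liver, after which the remnant grows back. They were chosen by name: 14 of the 22690 probe sets of the array carry one of these names as their single gene symbol, and each gene was represented by its probe set with the highest mean intensity, the others serving as a check. All 9 were bright enough to be tested, among 13576 probe sets for 8453 genes. The groups were normal mouse liver and liver recovered 4, 8, 12, 36, 48 and 72 h after PHx, with 2 arrays each. The labels give no strain, sex, age or treatment beyond the operation, and no sham-operated group. Livers of 4 to 6 mice were pooled for an RNA extraction, so an array does not show the spread between animals. Nothing in the labels tells whether the second array of a group was a second pool of mice, so each p-value reflects array-to-array spread that may be technical.

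The liver is the main source of most of these proteins in plasma, and the small intestine makes several of them. Apob is the backbone protein of the triglyceride-rich very low density lipoprotein (VLDL) that hepatocytes secrete, and Apoa1 and Apoa2 are the main proteins of high density lipoprotein (HDL). The small exchangeable apolipoproteins move between particles: Apoc3 slows and Apoa5 promotes the clearance of triglyceride, and Apoe is a ligand for receptors that take up remnant particles. Apoa4 is best known from intestinal chylomicrons and is also made by liver, and Apom carries sphingosine 1-phosphate on HDL.

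4 of the genes, as the gene table of GRCm38.p6 orders them, lie side by side on chromosome 9 as Apoa1, Apoc3, Apoa4 and Apoa5, with no other protein-coding gene between them. Apoc1 and Apoe are neighbours on chromosome 7, next to Apoc2 and Apoc4. The 250 bases before the annotated start of 3 genes of the chromosome 9 cluster are printed because these neighbours differed in how their RNA moved after the operation: Apoa4 rose, Apoa1 did not pass any test against normal liver, and Apoa5 had its lowest values at 72 h. The sequences are those of RefSeq on GRCm38.p6, 5′ to 3′ on the plus strand, at chr9:46240594-46240843 for Apoa4, chr9:46228380-46228629 for Apoa1 and chr9:46268358-46268607 for Apoa5. Capitals mark matches to a searched motif.
Apoa4: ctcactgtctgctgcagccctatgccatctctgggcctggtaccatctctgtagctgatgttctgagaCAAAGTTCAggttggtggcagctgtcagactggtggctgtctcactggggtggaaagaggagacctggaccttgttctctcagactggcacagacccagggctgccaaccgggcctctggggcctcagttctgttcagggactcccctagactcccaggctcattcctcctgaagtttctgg
Apoa1: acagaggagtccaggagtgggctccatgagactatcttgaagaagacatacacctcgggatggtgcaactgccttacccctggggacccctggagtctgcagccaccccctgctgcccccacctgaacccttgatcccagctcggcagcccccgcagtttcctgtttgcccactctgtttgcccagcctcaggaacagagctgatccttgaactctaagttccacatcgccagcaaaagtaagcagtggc
Apoa5: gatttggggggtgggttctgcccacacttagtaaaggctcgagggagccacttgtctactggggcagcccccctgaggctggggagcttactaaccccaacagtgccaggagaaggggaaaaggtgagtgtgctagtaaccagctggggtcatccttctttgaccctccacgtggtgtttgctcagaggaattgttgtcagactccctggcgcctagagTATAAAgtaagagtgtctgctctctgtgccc
The motifs searched, on both strands, were TATAAA (the TATA box), AGGTCA (1 arm of a nuclear receptor site), CAAAGNTCA (the core of sites for the liver factor HNF4, where N is any base), TGACGT (part of a cAMP response element) and GTTAAT (part of a site for HNF1). The Apoa4 window holds CAAAGTTCA at 182 to 174 bases before the start, and 1.32% of 32817 windows of this length hold the HNF4 core. The Apoa5 window holds TATAAA at 31 to 26 bases before the start, as do 12.4% of windows at any place. In the Apoa1 window none of the 5 was found. Of the other members with a window, Apob holds TATAAA at 60 to 55 bases before its start, Apoa2 holds TGACCT, the AGGTCA motif on the other strand, at 238 to 233, and Apoe and Apom hold none of the 5. AGGTCA is in 14% of windows, TGACGT in 6.46% and GTTAAT in 6.44%. A match of letters is a description and says nothing of binding. The lack of an exact match, as in Apoa1, does not show that a site for a factor is absent.

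The values are linear intensities, scaled by the depositors so that the mean of each array without its lowest and highest 2 percent lay between 500.2 and 500.3. Array medians ranged from 127.8 to 233.1, and precision is set by how few arrays there were. The highest value of an array belonged to Apoa1 on 11 arrays and to Apoa2 on 2, which places these probe sets at the top of the signal range and does not rank RNA abundances between genes. Replicate 2 at 8, 12, 36 and 72 h differed from the rest in a control for RNA completeness: its ratio of 5′ to 3′ signal for pyruvate carboxylase was 0.091 to 0.137 on these 4 arrays and 0.305 to 0.584 on the other 10. They are called the low-ratio arrays, and without them 1 array is left at each of those times. All 9 hepatocyte markers on the array (of 12 listed, Alb and Ttr among them) were above background on all 14 arrays. Summed exocrine pancreas marker intensity was 1070 to 2105 in normal liver, 36210 and 36630 at 4 h and 232000 and 249500 at 8 h, and 40430 in replicate 2 at 36 h. Summed skeletal muscle marker intensity was 533.8 to 940.8 in normal liver, 16970 and 18350 at 4 h and 10670 and 11360 at 8 h.

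Apoa4 rose at every time after the operation. Its intensity was 1362 and 1319 on the arrays of normal liver, 3577 and 5119 at 4 h, 20737 and 15736 at 8 h, and 24031 and 14267 at 12 h. It was 23521 and 22494 at 36 h, 10928 and 19228 at 48 h, and 6043 and 6683 at 72 h. Every array after PHx lay above both arrays of normal liver, the 4 h arrays lay below all later ones, and the 72 h arrays lay between those at 4 h and those at 8 to 48 h. The order of the group means was 36, 12, 8, 48, 72, 4 h and normal liver, and the arrays of the first 4 of these overlapped from neighbour to neighbour, while the last 3 were separate.

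**Figure D1:**
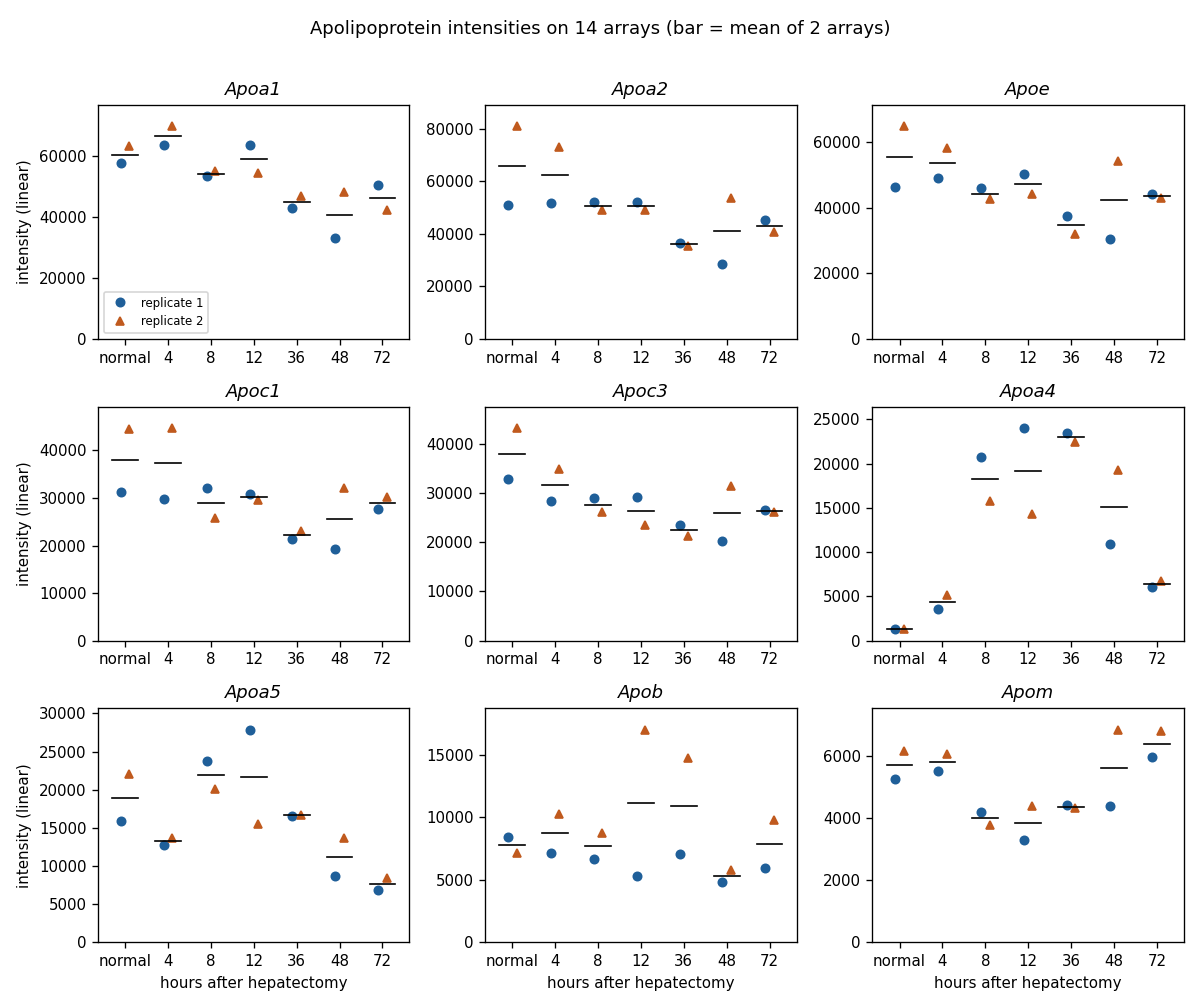
Intensity of the 9 apolipoproteins on the deposited linear scale (y axis, from 0 in each panel) in normal liver and at 4 to 72 h after hepatectomy (x axis); circles are replicate 1, triangles replicate 2, and bars the mean of the 2 arrays. Apoa4 goes from 1340 in normal liver to a mean of 23010 at 36 h, Apoa5 has its lowest group mean, 7590, at 72 h, and replicate 2 of Apob stands above replicate 1 at all 6 times and below it in normal liver.

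On the log2 scale, with 57 added to each intensity, the change of Apoa4 against normal liver was 1.63 at 4 h (SE 0.32, adjusted p = 0.0202, 2 arrays against 2), and its mean was 4348 ± 1091 (SD, n = 2) against 1340 ± 30.5 (SD, n = 2). Adjusted p-values are from the moderated t of limma with Benjamini-Hochberg adjustment over all 13576 probe sets, and a change is called at 0.05. The change was 3.70 at 8 h (adjusted p = 4.92e-05), 3.73 at 12 h (adjusted p = 5.9e-05) and 4.04 at 36 h (adjusted p = 5.13e-05), each with SE 0.32 by limma. It was 3.38 at 48 h (adjusted p = 8.45e-05) and 2.20 at 72 h (adjusted p = 0.00268) by the same test. The 36 h change is a 16.5-fold rise, to 23010 ± 726 (SD, n = 2). After quantile normalization the 6 changes were between 1.56 at 4 h and 4.41 at 36 h, all called. In these bulk samples a change in the number of cells of a type and a change in RNA per cell cannot be told apart.

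Apoa4 was the only 1 of the 9 members called at 4, 8, 12, 36 and 48 h, and 1 of 2 at 72 h. Among all tested probe sets, 2.42% were called at 4 h and 9.59% at 8 h. The share was 12.2% at 12 h, then 4.17% at 36 h, 2.32% at 48 h and 2.49% at 72 h. Over the 6 times the moderated F test of limma called Apoa4 (adjusted p = 5.78e-05) and Apoa5 (adjusted p = 0.0313), 2 of 9 members beside 13.1% of all tested probe sets. For Apom the set in use did not pass this F test of limma (adjusted p = 0.219), but its other set did (adjusted p = 0.0252). Between times after PHx, Apoa4 rose again from 4 to 8 h, by 2.06 (SE 0.32, limma adjusted p = 0.0124), where 1.42% of probe sets were called. From 36 to 72 h it fell by 1.85 (SE 0.32, limma adjusted p = 0.0243), where 0.56% were called. It was the single member called in each of these steps, which were added after the data were seen.

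The 4 h call is the least secure of the rise. It was lost when any of the arrays compared was left out, with a change of 1.61 (adjusted p = 0.136) without normal replicate 2, 1.66 (adjusted p = 0.0613) without normal replicate 1, 1.38 (adjusted p = 0.223) without 4 h replicate 2 and 1.89 (adjusted p = 0.0663) without 4 h replicate 1, all by limma. Without the low-ratio arrays the 4 h change, the same 1.63 since none of its arrays is left out, passed no longer (adjusted p = 0.0527 by limma), nor did that at 72 h (2.13, adjusted p = 0.1), while the changes at 8 h (3.90, adjusted p = 0.00234), 12 h (4.11, adjusted p = 0.00527), 36 h (4.08, adjusted p = 0.0127) and 48 h (3.38, adjusted p = 0.00355) passed. The steps from 4 to 8 h and from 36 to 72 h lost their call in limma without any of the 4 arrays of the step, with adjusted p of 0.0708 to 0.12 and 0.103 to 0.238, while the changes themselves stayed at 1.81 to 2.32 and at -1.92 to -1.77.

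The other probe set of Apoa4, 1417761_at, gave the same course. The probe set in use, 1436504_x_at, has a name that on these arrays marks a set with probes shared with other transcripts, which the other set's name does not. The intensity of 1417761_at was 893 and 828 in normal liver, 1853 and 1494 at 4 h, 15083 and 14028 at 8 h, 22654 and 11566 at 12 h, 21867 and 21732 at 36 h, 8754 and 10462 at 48 h, and 4864 and 4845 at 72 h. Its change at 4 h was 0.91 and not called (SE 0.28, limma adjusted p = 0.139), and at 36 h it was 4.58 (SE 0.28, limma adjusted p = 9.9e-06). It was called at all times but 4 h.

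**Figure D2:**
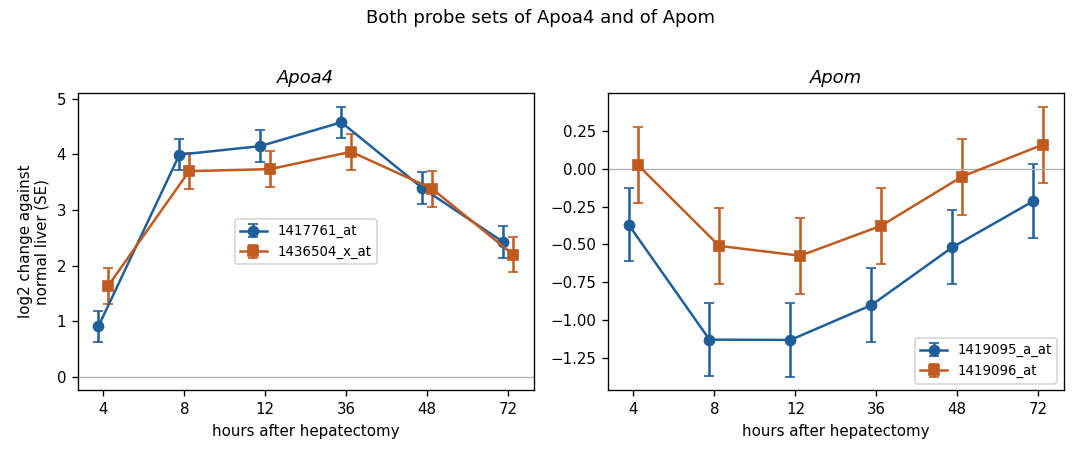
Log2 change against normal liver (y axis) with the standard error of the limma fit (bars) at 4 to 72 h after hepatectomy (x axis) for both probe sets of Apoa4 and of Apom. Both Apoa4 sets peak at 36 h, at 4.04 and 4.58; of the Apom sets, 1419095_a_at reaches -1.13 at 8 and 12 h and 1419096_at -0.51 and -0.57.

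Markers of pancreas, muscle and intestine were set beside Apoa4. At 4 h, when Apoa4 was at 3577 and 5119, summed exocrine pancreas markers were at 36210 and 36630 and skeletal muscle markers at 18350 and 16970. At 8 h, when Apoa4 was at 20737 and 15736, pancreas markers were at 249500 and 232000 and muscle markers at 11360 and 10670. At 12 h, when Apoa4 was at 24031 and 14267, summed exocrine pancreas markers were at 4175 and 1946 and skeletal muscle markers at 2700 and 2063. At 36 h, when Apoa4 was at 23521 and 22494, pancreas markers were at 1088 and 40430 and muscle markers at 716.6 and 3004 on the same arrays. The part of these tissues in the values of Apoa4 was not tested. Of 16 enterocyte markers listed, 12 are on the array; Fabp2 and Lgals4 were above background on all 14 arrays, Krt20 on 9, Guca2b on 8, Cdx2 and Lct on 6, Rbp2 on 2, Vil1, Cdh17 and Slc15a1 on 1, and Cdx1 and Guca2a on 0. Their summed intensity was 3020 and 3477 in normal liver and 5570 and 4752 at 36 h, and Fabp2 alone reached 4879 on its highest array. The 2 enterocyte markers bright enough to be tested had a median change of 0.18 at 36 h. Their part in the values of Apoa4 was not tested either.

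Apoa5 stayed near normal liver at 8 to 36 h and had its lowest values late. Its intensity was 15858 and 22076 in normal liver, 12811 and 13702 at 4 h, 23780 and 20114 at 8 h, and 27869 and 15502 at 12 h. It was 16605 and 16670 at 36 h, 8694 and 13629 at 48 h, and 6820 and 8361 at 72 h. The arrays at 4, 48 and 72 h lay below both of normal liver, and those at 8, 12 and 36 h overlapped them. The order of means was 8, 12 h, normal, 36, 4, 48 and 72 h. Only 36 and 4 h, and 48 and 72 h, were neighbours whose arrays did not overlap. For Apoa5 and the members below, such a separation is a description, since arrays this few can separate by chance. Every time was set against the same arrays of normal liver. The share of all tested probe sets whose arrays separate from normal liver was not counted.

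At 72 h Apoa5 had fallen by 1.30 on the log2 scale (SE 0.31, limma adjusted p = 0.0498), from 18970 ± 4397 (SD, n = 2) to 7590 ± 1090 (SD, n = 2). That call is at the edge of the threshold. It was lost with the low-ratio arrays as a block (-1.20, limma adjusted p = 0.101), without them (-1.45, limma adjusted p = 0.235) and without any of 9 single arrays (normal replicate 2 and both arrays of 4, 8, 36 and 72 h), where the adjusted p ran from 0.0746 to 0.375. Quantile normalization kept it (-1.12, limma adjusted p = 0.0207). The change was -0.50 at 4 h (SE 0.31, limma adjusted p = 0.536) and -0.78 at 48 h (SE 0.31, limma adjusted p = 0.279), neither called.

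The late times (36, 48 and 72 h) were also set against the early ones (4, 8 and 12 h), a comparison that uses no array of normal liver. It called 2 of 9 members, both lower late, where 15.9% of all probe sets were called and 5.96% were called lower late. Apoa5 was lower late by a log2 difference of -0.71 (SE 0.18, limma adjusted p = 0.0184), with means of 11800 over 6 late and 18960 over 6 early arrays. It lost the call without 4 h replicate 2 (-0.69, limma adjusted p = 0.0529), 72 h replicate 1 (-0.66, limma adjusted p = 0.054) or 8 h replicate 1 (-0.67, limma adjusted p = 0.0565), and without the low-ratio arrays (-0.94, limma adjusted p = 0.055). Apoa4 was not called between the periods, at 0.19 (SE 0.19, limma adjusted p = 0.567), but was called after quantile normalization (0.49, limma adjusted p = 0.036), and its other probe set was at 0.45 (SE 0.16, limma adjusted p = 0.0874). Exocrine pancreas markers, 9 of 9, and skeletal muscle markers, 10 of 10, were lower late; their part in the late against early differences was not tested.

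Apoa1, the main HDL protein, was lower late than early under the deposited scaling. Its intensity was 57614 and 63318 in normal liver, 63591 and 69751 at 4 h, 53432 and 54960 at 8 h, and 63639 and 54461 at 12 h. It was 43103 and 46982 at 36 h, 32965 and 48092 at 48 h, and 50480 and 42122 at 72 h. The 4 h arrays lay above both of normal liver, those at 8, 36, 48 and 72 h below both, and those at 12 h on either side. With the other 3 probe sets of Apoa1 the 4 h arrays overlapped those of normal liver. The late against early difference was -0.45 (SE 0.13, limma adjusted p = 0.0382), with means of 43960 and 59970 over 6 arrays each. For the 226 other probe sets of the brightest 1 percent, this difference had a median of -0.20 and a lower quartile of -0.395. Of them, 81.4% lay below 0 and 17.3% were called.

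After quantile normalization the late against early difference of Apoa1 was -0.08 (limma adjusted p = 0.662). Quantile normalization gives each rank the same value on every array, so a probe set that nearly keeps its rank changes little. Apoa1 ranked 1 to 7 on the 14 arrays. The call was thus lost under this scaling, which cannot show a fall shared with the other brightest probe sets. The call of Apoa1 was also lost without the low-ratio arrays (-0.46, limma adjusted p = 0.265) and without any single array after PHx except 12 h replicate 2 and 48 h replicate 2, with a highest adjusted p of 0.107. The other 3 probe sets of Apoa1 were not called late against early, with -0.42 (adjusted p = 0.0532), -0.37 (adjusted p = 0.131) and -0.35 (adjusted p = 0.207). Against normal liver Apoa1 was at 0.14 (SE 0.23, limma adjusted p = 0.854) at 4 h and reached its lowest change, -0.60 (SE 0.23, limma adjusted p = 0.262), at 48 h; it was not called at any time, and under quantile normalization its change was 0.14 at 8, 12 and 36 h and 0 at 48 h.

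Apoa2, the second protein of HDL, was not called at any time. Its intensity was 50874 and 81006 in normal liver, 51664 and 73114 at 4 h, 52329 and 49172 at 8 h, 52072 and 49188 at 12 h, 36529 and 35528 at 36 h, 28647 and 53654 at 48 h, and 45452 and 40558 at 72 h. The arrays of normal liver and of 48 h were each far apart, and those at 36 and 72 h lay below both of normal liver. The lowest change was -0.83 at 36 h (SE 0.32, limma adjusted p = 0.177), and the interval of the fit, at 95% confidence, ran from -1.52 to -0.15. Late against early, Apoa2 was at -0.46 (SE 0.18, limma adjusted p = 0.113), and it passed only without 48 h replicate 2 (-0.61, limma adjusted p = 0.0324).

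Apom gave different calls with its 2 probe sets. With 1419096_at, the brighter, the intensity was 5264 and 6161 in normal liver, 5511 and 6071 at 4 h, 4192 and 3782 at 8 h, 3296 and 4390 at 12 h, 4409 and 4336 at 36 h, 4401 and 6846 at 48 h, and 5955 and 6803 at 72 h. The arrays at 8, 12 and 36 h lay below both of normal liver, but the changes of -0.51 (SE 0.25, limma adjusted p = 0.227) at 8 h and -0.57 (SE 0.25, limma adjusted p = 0.15) at 12 h were not called. With 1419095_a_at it was 6158 and 8676 in normal liver, 3264 and 3358 at 8 h and 3148 and 3472 at 12 h. That set fell by 1.13 at both times (SE 0.24, limma adjusted p = 0.0129 and 0.0115), and the mean of both sets fell by 0.82 (limma adjusted p = 0.0297) and 0.85 (limma adjusted p = 0.0229). Both sets were back near normal liver at 72 h, at 0.16 (SE 0.25) and -0.21 (SE 0.24).

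**Figure D3:**
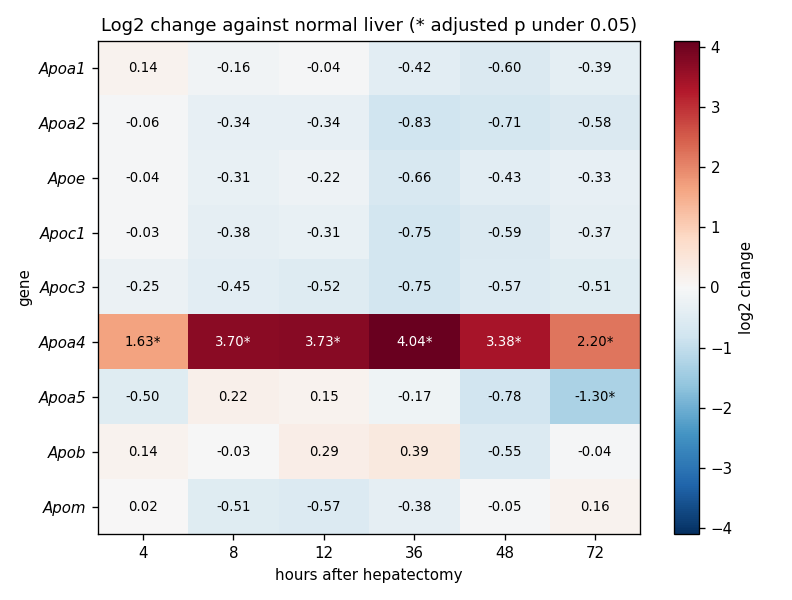
Log2 change against normal liver (colour and number) of the 9 apolipoproteins (rows) at 4 to 72 h after hepatectomy (columns), each from 2 arrays against 2 by limma; an asterisk marks an adjusted p under 0.05. Apoa4 is called at all 6 times, with 4.04 at 36 h, Apoa5 at 72 h with -1.30, and no other member at any time.

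Apoc1, Apoc3 and Apoe, which travel on VLDL and HDL, had similar courses, and none was called. Apoc3, an inhibitor of triglyceride clearance, had intensities of 32840 and 43293 in normal liver, 28523 and 35034 at 4 h, 29105 and 26278 at 8 h, 29261 and 23491 at 12 h, 23529 and 21319 at 36 h, 20367 and 31557 at 48 h, and 26671 and 26228 at 72 h. Its arrays lay below both of normal liver at all times but 4 h. These times share the same arrays of normal liver, so they are not separate observations. How often other probe sets separated in this way was not counted. The groups of Apoc3 overlapped from neighbour to neighbour in the order of means. Its lowest change was -0.75 at 36 h (SE 0.26, limma adjusted p = 0.14). Apoc1, a small protein of VLDL and HDL, was at 31320 and 44612 in normal liver, 21408 and 23033 at 36 h and 19282 and 31996 at 48 h, a change of -0.75 at 36 h (SE 0.29, limma adjusted p = 0.193). Apoe, the receptor ligand, was at 46213 and 64778 in normal liver, 37472 and 31815 at 36 h and 30316 and 54135 at 48 h, a change of -0.66 at 36 h (SE 0.28, limma adjusted p = 0.232).

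Apoe is also made by macrophages. The summed intensity of 11 Kupffer cell and macrophage markers was 13740 and 15320 in normal liver and 8302 and 5761 at 12 h. There 5 of 11 were called lower, as were 6.22% of all tested probe sets. Apoe at 12 h was at 50214 and 44157 and its change was -0.22 (SE 0.28, limma adjusted p = 0.632). At 36 h, where Apoe was lowest (-0.66, limma adjusted p = 0.232), the sums were 11810 and 12180. Of the 11 markers 1 was called higher and 0 lower there, against 2.28% and 1.89% of all tested probe sets. The part of these cells in the values of Apoe was not tested. Over the 7 group means, Apoe correlated with Apoc1 at r = 0.989, with Apoa2 at 0.964 and with Apoc3 at 0.916, and Apoc3 with Apoa4, its neighbour on chromosome 9, at -0.909. These are descriptions over 7 points that share the scaling of their arrays.

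From 8 h on, most bright probe sets were lower than in normal liver under the deposited scaling, as were Apoa2, Apoc1, Apoc3 and Apoe. The median change of the 9 members was -0.42 at 36 h and -0.57 at 48 h, against 0.07 and 0.12 for all tested probe sets. The 226 other probe sets of the brightest 1 percent had a mean intensity of at least 11710. Their median was -0.37 at 36 h and -0.25 at 48 h, and 74.3% of them were below 0 at each. Their lower quartile was -0.67 at 36 h and -0.44 at 48 h. Apoa2 (-0.83 and -0.71), Apoc1 (-0.75 and -0.59) and Apoc3 (-0.75 and -0.57) lay below this quartile at both times. Apoe (-0.66 and -0.43) lay just above it. The 9 hepatocyte markers had a median of -0.65 at 36 h and -0.38 at 48 h. After quantile normalization, which took the overall median at 48 h from 0.12 to 0.00, the members' median was -0.01 at 36 h and -0.16 at 48 h. Apoa2, Apoc1 and Apoc3 kept values below 0 at all 6 times under it, and Apoe at 4 of 6. On the arrays Apoa2 ranked 1 to 8 and Apoe 2 to 10, so both, like Apoa1, stayed among the brightest probe sets. Their values under quantile normalization reflect these ranks and cannot show a fall shared with the other brightest probe sets. Apoc1 ranked 21 to 59 and Apoc3 22 to 69. Whether the RNAs of Apoa2, Apoc1, Apoc3 and Apoe fell cannot be told apart from the scaling of the arrays.

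**Figure D4:**
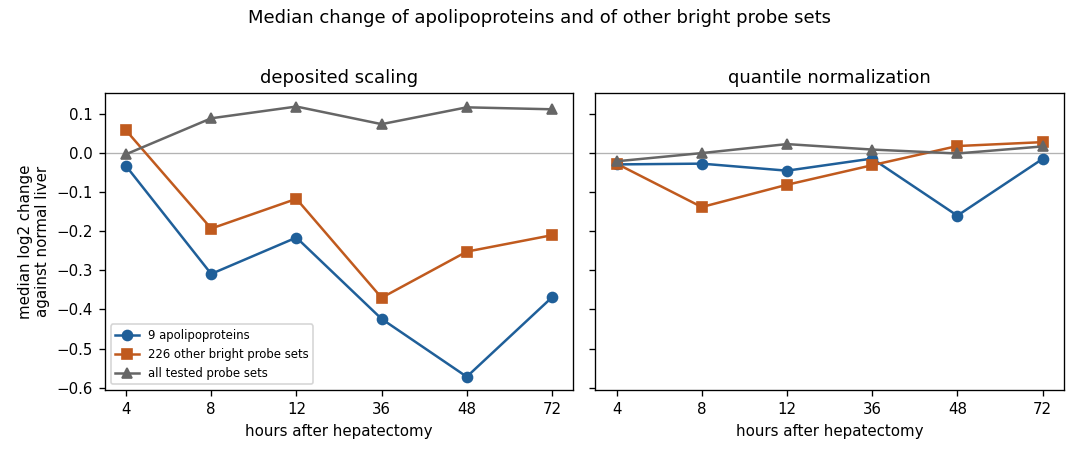
Median log2 change against normal liver (y axis) at 4 to 72 h after hepatectomy (x axis) of the 9 apolipoproteins (circles), 226 other bright probe sets (squares) and all tested probe sets (triangles), with the deposited scaling (left) and after quantile normalization (right). The members' median at 36 h is -0.42 on the left and -0.01 on the right, and the bright probe sets go from -0.37 to -0.03. Quantile normalization fixes the value of each rank, so probe sets that nearly keep their rank change little under it.

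Apob, the backbone of VLDL, could not be placed because its arrays disagreed. Its intensity was 8472 and 7170 in normal liver, 7171 and 10264 at 4 h, 6676 and 8733 at 8 h, and 5309 and 17032 at 12 h. It was 7061 and 14738 at 36 h, 4863 and 5814 at 48 h, and 5925 and 9762 at 72 h. Replicate 2 was above replicate 1 in the 4 groups whose replicate 2 is a low-ratio array, by ratios of 1.31, 3.21, 2.09 and 1.65, against 0.846 in normal liver, 1.43 at 4 h and 1.20 at 48 h. The residual SD of Apob, 0.60 on the log2 scale, was the highest of the 9 members. It was not called in any comparison, and its change at 36 h was 0.39 (SE 0.49, limma adjusted p = 0.756), with an interval from -0.68 to 1.45. With the low-ratio arrays as a block that change was -0.09 (limma adjusted p = 0.929), and the change at 12 h went from 0.29 (SE 0.49, limma adjusted p = 0.72) to -0.19 (limma adjusted p = 0.728). Without those arrays the change was -0.14 at 36 h (limma adjusted p = 0.961) and -0.55 at 12 h (limma adjusted p = 0.43).

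**Figure D5:**
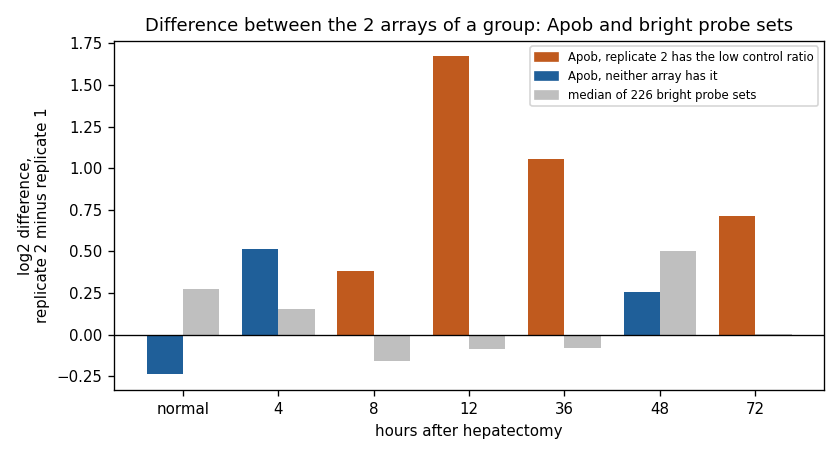
Log2 difference between replicate 2 and replicate 1 (y axis) in normal liver and at each time (x axis) for Apob (coloured bars; orange where replicate 2 is a low-ratio array) and for the median of 226 bright probe sets (grey). Apob stands at 1.67 at 12 h and 1.06 at 36 h while the bright probe sets are at -0.09 and -0.08.

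For the members called by the F test, the genes with the most similar course over the 7 group means were sought among 8444 other tested genes. For Apoa4 these were Ung, a uracil-DNA glycosylase of base excision repair (r = 0.984), Tomm20, a receptor of the mitochondrial outer membrane import machinery (r = 0.969), and Inpp5k, an inositol phosphatase (r = 0.967). Ung and Tomm20 passed the F test of limma themselves (adjusted p = 0.00202 and 0.00973), and Inpp5k did not (adjusted p = 0.77). For Apoa5 they were Slc25a30, a mitochondrial carrier (r = 0.973), Exosc4, a subunit of the RNA exosome (r = 0.943), and Psmd2, a proteasome subunit (r = 0.941), of which Slc25a30 passed the F test of limma (adjusted p = 6.1e-05). The correlations rest on 7 points and were chosen as the highest of many.

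The other lipoprotein genes were taken from 6 lists by function. Their counts stand against the 13.1% of all tested probe sets that passed the F test, and against 5.98% called higher and 6.22% lower at 12 h and 2.28% and 1.89% at 36 h. Of 13 other apolipoproteins and proteins bound to HDL, 5 passed the F test. The serum amyloid proteins Saa1 and Saa2, acute-phase proteins carried on HDL, rose at all 6 times, Saa2 by 5.42 at 8 h (SE 0.32, limma adjusted p = 5.75e-06), from 497 ± 19.2 (SD, n = 2) to 23810 ± 4331 (SD, n = 2). Saa1 rose by 5.09 at 12 h (SE 0.29, limma adjusted p = 4.5e-06); these genes are near copies, and their probe sets may share signal. Saa4, the constitutive form, fell by 1.75 at 12 h (SE 0.28, limma adjusted p = 0.00203), a call lost without the low-ratio arrays (-1.35, limma adjusted p = 0.0528). Apoc2, the activator of lipoprotein lipase and a neighbour of Apoc1, rose by 1.31 at 36 h (SE 0.23, limma adjusted p = 0.00728), but without the low-ratio arrays it did not pass there (1.41, limma adjusted p = 0.108). The median of the list was -0.26 at 36 h, with 3 called higher and 1 lower.

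Of 16 genes of lipoprotein assembly, apolipoprotein mRNA editing and secretion, 3 passed the F test, a share near that of all probe sets, and the list's median lay between -0.22 and -0.09 at the 6 times. Ces1d, a carboxylesterase that mobilises stored triglyceride, fell by 1.48 at 36 h (SE 0.30, limma adjusted p = 0.0175), and Aadac, a lipase of the endoplasmic reticulum, by 1.22 (SE 0.22, limma adjusted p = 0.00947). Syncrip, an RNA-binding partner of the Apob editing complex, passed the F test of limma but no single time, with 0.64 at 36 h (SE 0.23, adjusted p = 0.16). Without the low-ratio arrays neither fall passed at 36 h, with Ces1d at -1.39 (limma adjusted p = 0.119) and Aadac at -1.22 (limma adjusted p = 0.195). Of 6 tested receptor and uptake genes, 1 passed the F test, also near the overall share: Scarb1, the HDL receptor SR-BI, fell by 1.13 at 8 h (SE 0.26, limma adjusted p = 0.0172) and 1.47 at 12 h (SE 0.26, limma adjusted p = 0.00361), and the list's median at 12 h was -0.58. Without the low-ratio arrays the fall of Scarb1 passed at 12 h (-1.81, limma adjusted p = 0.0268) and not at 8 h (-1.06, limma adjusted p = 0.144).

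Of 9 genes of HDL formation and remodelling, 5 passed the F test. Abca1, the transporter that loads Apoa1 with cholesterol, rose by 1.58 at 8 h (SE 0.20, limma adjusted p = 0.000489) and 1.57 at 12 h (SE 0.20, limma adjusted p = 0.000594), and its change at 36 h was 0.31 (SE 0.20, limma adjusted p = 0.457). At 8 h 4 of the 9 fell, where 4.72% of all probe sets did, among them Abcg8, which with Abcg5 exports cholesterol into bile (-1.09, SE 0.21, limma adjusted p = 0.00632). At 12 h Abcg5 fell by 1.21 (SE 0.27, limma adjusted p = 0.0135) and Bmp1, the protease that matures pro-Apoa1, by 1.30 (SE 0.22, limma adjusted p = 0.00285). The list's median was -0.58 at 8 h, where all tested probe sets were at 0.09. Without the low-ratio arrays Abca1 passed at 8 h (1.62, limma adjusted p = 0.0283), Abcg5 passed at 12 h (-1.62, limma adjusted p = 0.0298), and none of the 4 falls at 8 h passed, Abcg8 among them (-1.13, limma adjusted p = 0.106), nor did that of Bmp1 at 12 h (-1.29, limma adjusted p = 0.06).

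Of 6 tested genes listed under plasma triglyceride lipolysis and its regulators, all 6 passed the F test. At 12 h 2 were higher and 4 lower, with a list median of -1.10. Apoa5 and Apoc3 regulate this lipolysis, and the list also holds a hormone and a lysosomal lipase. Fgf21, a fasting hormone, was not above background in normal liver and was at least 10.4-fold higher at 36 h (limma adjusted p = 0.000947), a bound set against the signal that passes background. Angptl8, an insulin-induced inhibitor of lipoprotein lipase, fell by 2.22 at 8 h (SE 0.29, limma adjusted p = 0.000758). Lpl, lipoprotein lipase itself, fell by 1.52 at 36 h (SE 0.30, limma adjusted p = 0.015), and Lipa, the lysosomal acid lipase, fell by 1.51 at 8 h (SE 0.27, limma adjusted p = 0.00472). Without the low-ratio arrays Lpl at 36 h (-1.60, limma adjusted p = 0.0944) and Lipa at 8 h (-1.47, limma adjusted p = 0.0806) did not pass, and 2 of the list were called higher and 2 lower at 12 h.

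Of 22 tested transcription regulators of apolipoprotein genes, 8 passed the F test (13.1% of all probe sets), with 1 higher and 6 lower at 12 h (5.98% and 6.22% of all) and a list median of -0.63 there. Nr0b2, the corepressor SHP, fell by 2.22 at 12 h (SE 0.34, limma adjusted p = 0.00169), and Mlxipl, the carbohydrate response factor ChREBP, was at -2.11 (SE 0.33, limma adjusted p = 0.00193). Srebf1, a regulator of lipid synthesis, fell by 2.09 at 8 h (SE 0.31, limma adjusted p = 0.0015). Cebpb, an acute-phase factor, rose by 1.64 at 4 h (SE 0.26, limma adjusted p = 0.00666), from 2503 ± 150 (SD, n = 2) to 7907 ± 375 (SD, n = 2). The counts describe lists written with earlier results of these data known.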

How the data were processed

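RNA of mouse liver was measured on 14 1-colour arrays with a biotin label, 7 groups of 2. The deposited values are linear intensity per probe set; equal trimmed means show a scaling between arrays, and their software is not stated in the labels. The design text in the labels says that the study selected 2-fold changes. Gene names came from the platform annotation: 20380 probe sets have 1 symbol, 691 several and 1555 none, and 64 controls were left out. The analysis used log2 of intensity plus 57 (the 25th percentile of all values). Probe sets with a mean of at least 128.8, the 40th percentile, were tested in limma 3.58.1 (R 4.3.3), 1 fit of 7 groups (lmFit, eBayes), with Benjamini-Hochberg adjustment and a threshold of 0.05. A probe set counted as above background past the 95th percentile of 27 bacterial controls on that array. Array by array values had no identical pairs. The procedure was tested on simulated data. Named were all 9 members, up to 4 genes per list that passed the F test with the largest change, and the 3 genes most like each called member. Members, lists and rules were chosen with earlier results of these data known. As alternatives, quantile normalization, other pseudocounts (14.25 and 228), no filter, a stricter filter (60th percentile), a variance trend with intensity, array weights, the replicate number and the low-ratio arrays as blocks, the fit without these arrays, only the arrays compared, averaged probe sets per gene, and each array left out were tried.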

Additional observations from a re-analysis of the deposited data

Results flagged for a closer look

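Apoa5 and Apoa1 each differed between late and early times by the limma test of the difference, by -0.71 (adjusted p = 0.0184) and -0.454 (adjusted p = 0.0382) on the log2 scale. With the probe set in use, Apoa1 also lay on opposite sides of normal liver. Both arrays at 4 h lay above both arrays of normal liver, at a log2 change of 0.141. Both arrays lay below those of normal liver at 8 h (-0.156), 36 h (-0.424), 48 h (-0.6) and 72 h (-0.389). For the other 3 probe sets of Apoa1 the 4 h arrays overlapped normal liver, at 0.06, 0.014 and 0.02. At 36 h all 3 lay below it. Of these, 1455201_x_at also overlapped normal liver at 8, 48 and 72 h, and 1438840_x_at at 48 h. The opposite directions were not tested as such, and none of the 5 changes of the set in use passed limma against normal liver. Under quantile normalization those at 8, 36 and 48 h were at 0.14, 0.14 and 0. These 3 changes thus did not stay below 0 under that normalization, which cannot show a fall shared with the other brightest probe sets.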

How the results depend on the processing

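Of the 11 called changes of members, 0 changed sign under the alternatives, and 48 of 282 values were no longer called; of the 70 changes not called, 6 values of 1797 became called and 56 changed sign or went to 0. The count of members called at 72 h, 2 in the report, was 1 with a pseudocount of 14.25, no filter, the low-ratio arrays as a block and with only the arrays compared, and 0 without the low-ratio arrays. The F test count, 2, was 1 with a pseudocount of 14.25, with no filter and without the low-ratio arrays. Without these arrays the count was also 0 instead of 1 at 4 h, from 4 to 8 h and from 36 to 72 h, and 0 instead of 2 for late against early. With probe sets averaged per gene it was 2 at 8 h and at 12 h (Apom added) and 1 for late against early. From 36 to 72 h it was 2 after quantile normalization and with array weights; these steps were added after the data were seen. Under quantile normalization late against early still counted 2, but Apoa4 (0.49, limma adjusted p = 0.036) took the place of Apoa1. Apoa1 was the highest probe set on most arrays, and that normalization cannot show a fall it shares with the other brightest probe sets. Leaving out each array in turn gave 0 to 1 called at 4 h, 1 to 2 at 72 h and by the F test, 0 to 3 for late against early, and 0 to 1 for both steps.

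Whether the replicate numbers pair the arrays cannot be told from these values. Over 21 pairs of groups, deviations of arrays with the same number correlated between -0.185 and 0.527, with 9 above 0.1. The median was 0.025, and the 4 low-ratio arrays are all replicate 2. With the replicate block the count at 72 h was 1, Apoa5 being lost (adjusted p = 0.0625 in limma).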
